A study of Mus musculus with 10 samples.

Results

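The 8 genes described here encode inhibitors of cytokine signalling through JAK kinases and STAT transcription factors. They were chosen by symbol from the count table of the series: Socs1, Socs2, Socs3 and Cish of the SOCS family, the phosphatase genes Ptpn1, Ptpn2 and Ptpn11, and the PIAS gene Pias1. All 8 had an entry among the 77175 of the table, and all 8 passed the count filter that left 15526 genes to be tested. The samples were cells of the mouse melanoma line B16-F10, called WT here, and of B16-F10-OVA, called OVA here. OVA cells are B16-F10 cells with the vector pLV[Exp]-Neo-EF1A>{ovalbumin}, whose name places ovalbumin, a model antigen, behind EF1A. The labels do not say whether OVA is a clone or a pool, and WT cells are not described as carrying an empty vector. Each line gave 2 untreated libraries and 3 libraries from cells kept for 24 h in 50 ng/ml of interferon gamma (IFN-γ). No time is given for the untreated libraries, so treated and untreated cells may not be matched in culture time.

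Interferon gamma binds a receptor made of Ifngr1 and Ifngr2 chains, which brings the kinases Jak1 and Jak2 together. The kinases phosphorylate STAT proteins, which enter the nucleus as dimers and switch on genes such as Irf1. SOCS proteins are made in response to the signal and feed back on it: Socs1 and Socs3 bind and block JAK kinases, while Cish and Socs2 are best known as brakes on signals through Stat5. The phosphatases, which remove phosphate from receptors, JAKs and STATs, are already present before the signal. Pias1 is a SUMO ligase that limits STAT proteins on DNA.

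Total counts per library ran from 17728722 to 19642533. No library was identical to another, and every pair of replicates differed by more than counting noise (chi-square over degrees of freedom 2.09 to 3.75). The labels do not say that replicates were separate cultures, so p-values measure the spread between these libraries, which may be technical. All 7 melanocyte lineage markers had counts in every group, with a summed level of 23100 to 24500 CPM, counts scaled to library size. The T cell markers Cd3e, Cd2 and Ptprc had no counts in any library. The summed level of 8 T cell markers was 1.23 to 1.89 CPM in untreated and 3.09 to 4.07 CPM in treated libraries. Lck made up nearly all of it, at 1.16 to 1.73 CPM in untreated and 2.98 to 4.01 CPM in treated libraries, while no other marker of that list had more than 4 counts in a library. For 6 macrophage markers the sum was 2.16 to 3.25 CPM untreated and 3.30 to 5.04 CPM treated. Cd68 and Lyz2 made up nearly all of it, and no other marker of that list had more than 2 counts in a library. Mean Cd68 went from 1.92 to 3.36 CPM in WT and from 1.80 to 2.93 CPM in OVA. Mean Lyz2 went from 0.861 to 0.680 CPM in WT and from 0.708 to 0.485 CPM in OVA. The part of those low levels in the results was not tested. In bulk samples, a change in the share of cells that express a gene and a change in RNA per cell cannot be told apart.

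Promoter windows were searched for 6 of the 8 members, and none was searched for Socs2 or Ptpn2, so nothing is said of theirs. Sequences are shown for Socs1, Socs3 and Cish, since no other member's searched window held a match to the motifs. The sequences are from RefSeq, build GRCm38.p6, each window holding 250 bases before and 50 after the annotated start. That is another build than the GRCm39 of the counts, so coordinates apply to the sequence only. The Socs1 bases lie at chr16:10785537-10785786 on the minus strand, the Socs3 bases at chr11:117969367-117969616 on the minus strand, and the Cish bases at chr9:107296659-107296678 on the plus strand. The first 2 stretches end 1 base before the start of transcription, and the Cish stretch is the first 20 bases of the transcript. Capitals mark matches to a gamma-activated site, GAS, the letters TTCNNNGAA that Stat dimers bind, or to the core of an interferon-stimulated response element, ISRE, searched as GAAA, any 2 bases, and GAAA again. Both strands were searched.
Socs1: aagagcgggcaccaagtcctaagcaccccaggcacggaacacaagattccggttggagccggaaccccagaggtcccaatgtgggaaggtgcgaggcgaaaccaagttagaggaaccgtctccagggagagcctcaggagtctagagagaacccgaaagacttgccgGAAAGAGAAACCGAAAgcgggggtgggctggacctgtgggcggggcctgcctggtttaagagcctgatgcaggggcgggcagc
Socs3: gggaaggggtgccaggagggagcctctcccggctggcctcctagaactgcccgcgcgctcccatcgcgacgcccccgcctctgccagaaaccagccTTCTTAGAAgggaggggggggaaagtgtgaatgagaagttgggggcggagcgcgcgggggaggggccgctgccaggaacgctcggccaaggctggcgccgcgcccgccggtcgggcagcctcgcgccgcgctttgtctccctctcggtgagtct
Cish: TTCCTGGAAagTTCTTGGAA

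The Socs1 window held 2 ISRE cores, at -83 to -74 (GAAAGAGAAA) and -77 to -68 (GAAACCGAAA) from the start, which overlap each other, and no GAS. The Socs3 window held 1 GAS, TTCTTAGAA at -154 to -146, and no ISRE core. The Cish window held 2 GAS matches just after the start, TTCCTGGAA and TTCTTGGAA. No match to either motif was found in the windows of Ptpn1, Ptpn11 or Pias1. Of all 32851 windows of this length, 8.30% held a GAS and 3.44% held an ISRE core. A match describes the letters only and shows no binding.

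**Figure D1:**
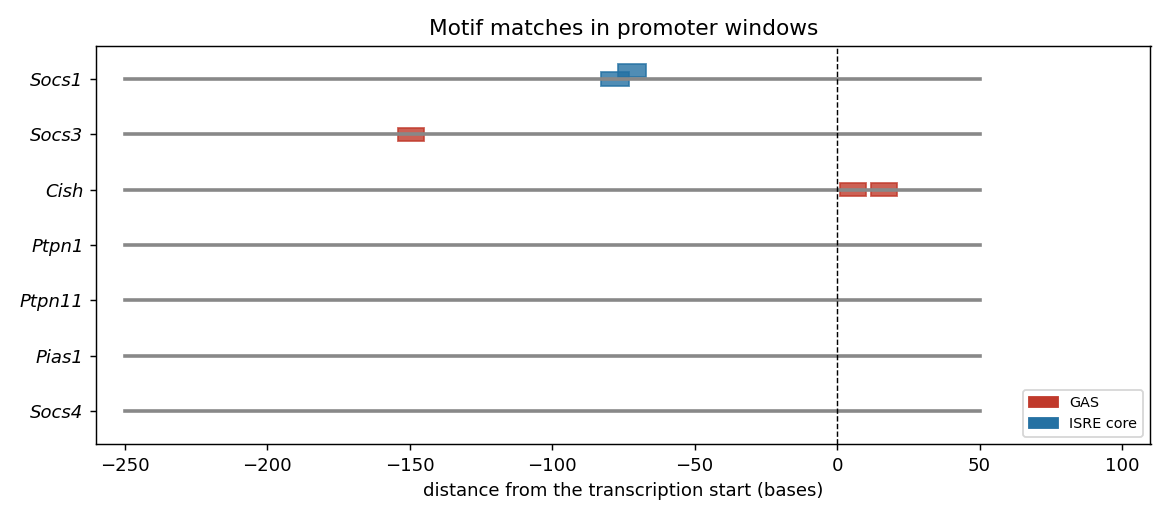
Motif matches in the promoter windows of the 6 members whose windows were searched and of Socs4. The horizontal axis is the distance in bases from the annotated start (dashed line), grey lines are the windows searched, red boxes are GAS matches and blue boxes ISRE cores. Socs1 holds the ISRE cores, Socs3 and Cish hold the GAS matches, and the other windows are empty.

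Socs1 and Socs3 rose with IFN-γ in both lines, Socs2 fell in both, and Cish was not called in either. Among the phosphatases, Ptpn2 rose in both lines, while the changes of Ptpn1 and Ptpn11 were small. By edgeR's quasi-likelihood test at an adjusted p under 0.05, 4 of the 8 members rose and 1 fell in WT, where 44.2% of all tested genes were called (24.5% higher, 19.7% lower). In OVA 4 members rose and 2 fell, where 48.8% of all genes were called (25.9% higher, 22.9% lower). The count of called members is thus little above what the share over all genes gives. Of the 8 members, 3 changed at least 2-fold in WT, against 7.14% of all genes, and 2 in OVA, against 8.08%. The median log2 change was 0.16 in WT and 0.12 in OVA over the members, and 0.011 and 0.0018 over all genes tested.

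Socs1 (ENSMUSG00000038037), whose protein inhibits JAK kinases directly, was nearly silent without IFN-γ. Untreated WT libraries held 11 and 6 counts of it, and untreated OVA libraries 15 and 11. Treated WT libraries held 464, 497 and 464 counts, and treated OVA libraries 443, 407 and 405. The treated and untreated libraries were thus far apart in both lines. Its level went from 0.472 ± 0.192 CPM (SD, n = 2) to 25.0 ± 0.654 CPM (n = 3) in WT, a change of 5.70 log2 units (SE 0.30, edgeR adjusted p = 6.19e-15). In OVA it went from 0.708 ± 0.160 to 23.4 ± 1.20 CPM, a change of 5.04 (SE 0.24, edgeR adjusted p = 1.33e-14). The few untreated counts set the precision of these folds: leaving out 1 library at a time moved the WT value between 5.35 and 6.19 and the OVA value between 4.82 and 5.27. The WT value was 6.19 without WT untreated replicate 1 and 5.35 without WT untreated replicate 2.

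Socs3 (ENSMUSG00000053113), which blocks JAK kinases bound to gp130 and related receptors, was already present without IFN-γ. It stood at 9.99 and 9.47 CPM in untreated WT and at 8.44 and 9.63 CPM in untreated OVA. With IFN-γ it reached 49.1, 54.0 and 56.1 CPM in WT and 43.4, 43.6 and 45.8 CPM in OVA. Every treated library lay above every untreated one, and every treated WT library lay above every treated OVA library. The change was 2.45 log2 units in WT (SE 0.088, edgeR adjusted p = 4.86e-14) and 2.29 in OVA (SE 0.090, edgeR adjusted p = 2.18e-13), that is 5.45-fold and 4.89-fold.

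Socs2 (ENSMUSG00000020027), a brake on growth hormone signalling, moved the opposite way. Its level was 4.25 and 3.98 CPM in untreated WT and 1.30, 2.06 and 1.99 CPM in treated WT. In OVA it was 4.77 and 5.63 CPM untreated and 2.97, 2.59 and 2.79 CPM treated. The treated libraries lay below the untreated ones in both lines. Socs2 fell by 1.20 on the log2 scale in WT (SE 0.20, edgeR adjusted p = 9.13e-05) and by 0.90 in OVA (SE 0.18, edgeR adjusted p = 5.12e-04).

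Cish (ENSMUSG00000032578), a Stat5 target that feeds back on Stat5 signalling, was low in all 10 libraries. It stood at 2.32 and 2.41 CPM in untreated WT, at 1.46, 2.11 and 2.09 CPM in treated WT, at 2.25 and 2.00 CPM in untreated OVA, and at 2.86, 1.86 and 1.67 CPM in treated OVA. The treated WT libraries were all below the untreated ones, whereas the OVA groups overlapped, with 1 treated library the highest of the 10. The log2 change was −0.32 in WT (95% interval −0.86 to 0.22, edgeR adjusted p = 0.331) and 0.0032 in OVA (−0.54 to 0.54, adjusted p = 0.994). Both intervals include a fall of 0.48, the size of the Ptpn2 change in WT.

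Ptpn2 (ENSMUSG00000024539) encodes a phosphatase that acts on Jak1 and on STAT proteins in the nucleus, and it had the largest change of the 3 phosphatases in both lines. Its level was 27.4 and 28.2 CPM in untreated WT and 38.8, 37.7 and 39.6 CPM in treated WT. In OVA it was 30.9 and 27.9 CPM untreated and 44.5, 39.1 and 44.0 CPM treated. The groups did not overlap in either line. Ptpn2 rose by 0.48 log2 units in WT (SE 0.066, edgeR adjusted p = 1.36e-05) and by 0.53 in OVA (SE 0.065, edgeR adjusted p = 2.67e-06), or 1.39-fold and 1.45-fold.

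Ptpn1 (ENSMUSG00000027540), the phosphatase PTP1B, which acts on Jak2 and on the insulin and leptin receptors, changed by a smaller amount. It went from 52.6 and 56.5 CPM to 61.3, 62.9 and 61.7 CPM in WT, and from 55.3 CPM in both untreated libraries to 60.6, 61.6 and 58.0 CPM in OVA. The treated libraries were above the untreated ones in both lines. Ptpn1 rose by 0.18 in WT (SE 0.046, edgeR adjusted p = 0.00340) and by 0.12 in OVA (SE 0.046, edgeR adjusted p = 0.0413). Leaving out WT untreated replicate 1 ended the WT call (adjusted p = 0.0764). The OVA call was lost with DESeq2 (Ptpn1 adjusted p = 0.179), with no filter (0.0600), with a stricter filter (0.0592), with only the OVA groups in the fit (0.0618) and without 7 of the 10 libraries in turn. Those 7 were every OVA untreated, OVA IFN-γ and WT IFN-γ library apart from OVA IFN-γ replicate 3, and the adjusted p over the 10 fits ran from 0.0347 to 0.186.

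Ptpn11 (ENSMUSG00000043733) encodes SHP2, a phosphatase that also carries signals from growth factor receptors to the Ras pathway, and it had the highest level of the 8 members. Its level was 202 and 201 CPM in untreated WT and 203, 193 and 183 CPM in treated WT, so the groups overlapped. In OVA it was 215 and 210.2 CPM untreated and 197, 195 and 196 CPM treated. Ptpn11 fell by 0.12 on the log2 scale in OVA (SE 0.037, edgeR adjusted p = 0.0146), a call lost without OVA untreated replicate 1 (adjusted p = 0.0854). In WT the change was −0.061 (SE 0.037, edgeR adjusted p = 0.204), and it was called only without WT IFN-γ replicate 1, the highest treated library (−0.11, adjusted p = 0.0157).

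Pias1 (ENSMUSG00000032405), which restrains STAT proteins at their target genes, was at 37.7 and 41.9 CPM in untreated WT and at 45.9, 43.5 and 41.3 CPM in treated WT. In OVA it was at 40.5 and 41.5 CPM untreated and at 44.4, 43.0 and 45.9 CPM treated. The WT groups overlapped and the OVA groups did not. The log2 change was 0.13 in WT (95% interval 0.0066 to 0.25, edgeR adjusted p = 0.0823) and 0.12 in OVA (−0.0073 to 0.24, adjusted p = 0.112). Pias1 was called in WT without WT untreated replicate 2 (adjusted p = 0.0329) or without WT IFN-γ replicate 3 (0.0491). Over all members, the libraries of the groups did not overlap for 6 of 8 in WT and 7 of 8 in OVA, where the same held for 62.0% and 65.6% of all genes.

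**Figure D2:**
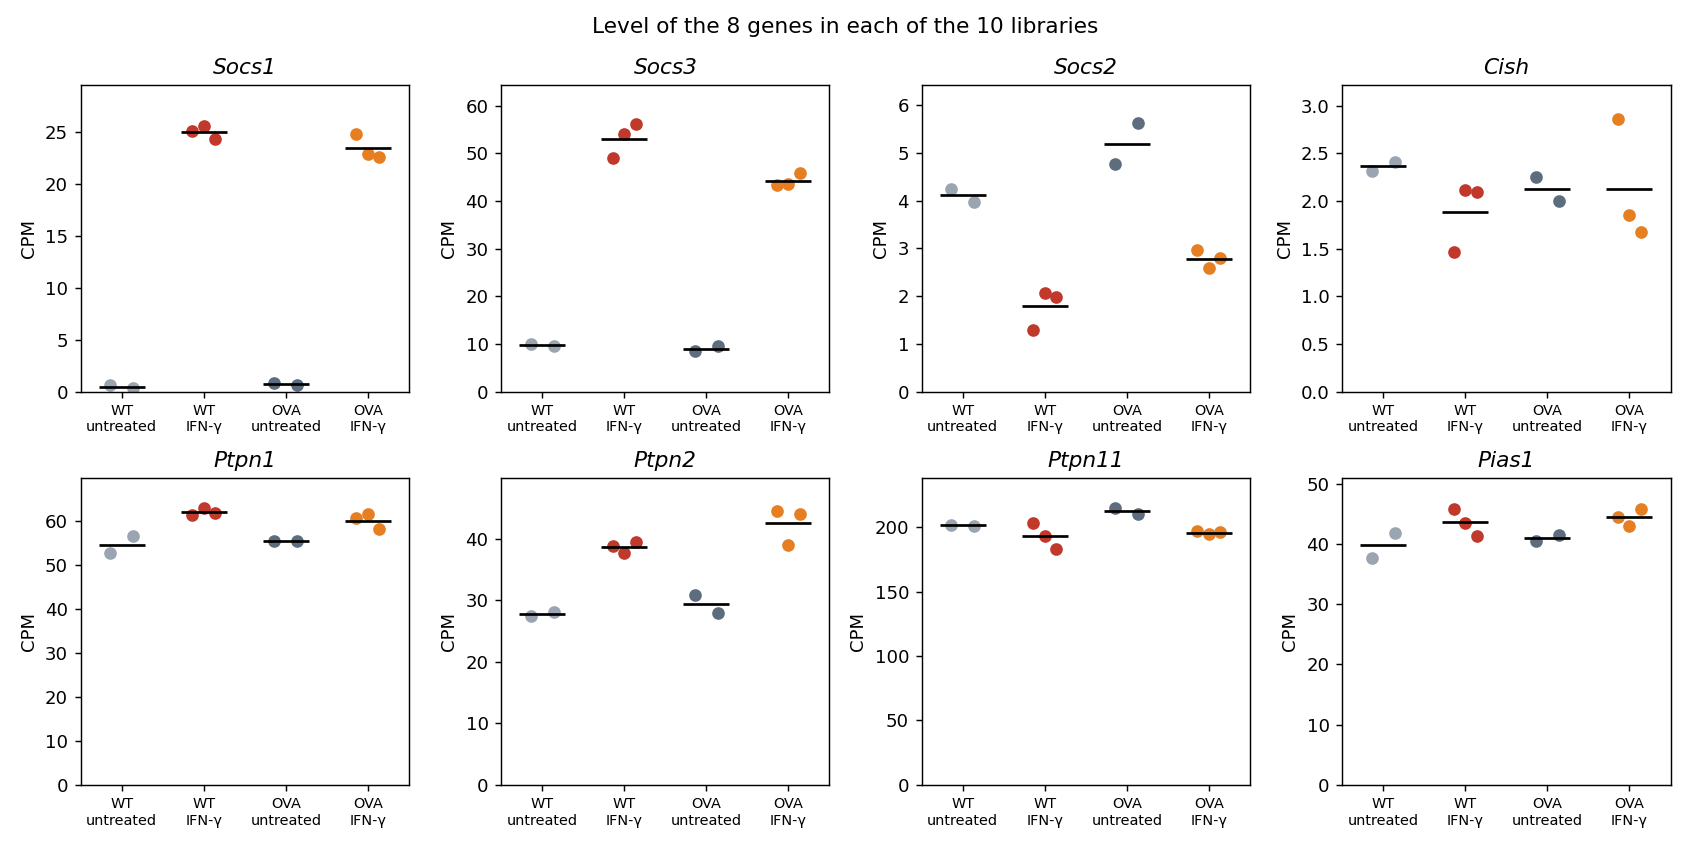
Level of each member in the 10 libraries, in CPM on linear axes that start at 0 and differ between panels. Points are libraries, grouped by line and treatment, and bars are group means. Treated libraries of Socs1, Socs3 and Ptpn2 sit above the untreated ones in both lines, those of Socs2 sit below, and Cish has 1 high library at 2.86 CPM in treated OVA.

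Whether the lines respond differently was tested by subtracting the WT response from the OVA response. By edgeR, 0 of 8 members were called, where 0.341% of all genes were (0.0773% higher and 0.264% lower in OVA, and 0.058% at 2-fold or more). None of the 8 had an unadjusted p under 0.05 with edgeR, DESeq2 or limma-voom. For Socs1 the difference was −0.67 log2 units (95% interval −1.48 to 0.15, adjusted p = 0.624). For Socs3 it was −0.16 (−0.42 to 0.11, adjusted p = 0.727), for Socs2 0.30 (−0.27 to 0.87, 0.756) and for Cish 0.32 (−0.44 to 1.08, 0.825). The intervals were narrower for the phosphatases and Pias1: Ptpn1 −0.065 (−0.20 to 0.071), Ptpn2 0.056 (−0.14 to 0.25), Ptpn11 −0.057 (−0.17 to 0.054) and Pias1 −0.015 (−0.19 to 0.16). A response differing by 0.48 in either direction, the whole Ptpn2 change in WT, thus lies outside the intervals of those 4 genes. A response 0.48 lower in OVA lies inside the interval of Socs1 only, and one 0.48 higher inside those of Socs2 and Cish only.

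Untreated, 0 of 8 members were called between the lines by edgeR, where 5.53% of all genes were (2.98% higher and 2.55% lower in OVA, and 0.406% at 2-fold or more). None had an unadjusted p under 0.05 with edgeR, DESeq2 or limma-voom. The largest value was that of Socs1, 0.58 log2 units higher in OVA (95% interval −0.23 to 1.38, adjusted p = 0.516), from counts of 15 and 11 against 11 and 6. The libraries of the lines did not overlap for 3 members, Socs2, Cish and Ptpn11, where 49.7% of all genes did not overlap.

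With IFN-γ, 2 of 8 members were called between the lines, where 14.4% of all genes were (6.36% higher and 7.99% lower in OVA, and 0.728% at 2-fold or more). The same 2 were the members whose libraries did not overlap, as for 31.1% of all genes. Socs3 was lower in OVA, 44.2 ± 1.33 against 53.1 ± 3.60 CPM (n = 3 each), a log2 difference of −0.26 (SE 0.052, edgeR adjusted p = 0.00265). That call held in each fit that left out 1 library (adjusted p up to 0.0161). Socs2 was higher in OVA, 2.78 ± 0.190 against 1.78 ± 0.420 CPM, a log2 difference of 0.64 (SE 0.19, edgeR adjusted p = 0.0334). The Socs2 call was lost with DESeq2 (adjusted p = 0.0971) and with only the treated groups in the fit (0.0572). It was also lost without treated WT replicate 1 (0.139) or any of the treated OVA replicates (0.0896, 0.0555 and 0.0785). Socs1 differed by −0.094 (95% interval −0.23 to 0.044, adjusted p = 0.378), so the treated lines ended at similar Socs1 levels within 0.23 log2 units. Ptpn2 was at 0.14 (0.021 to 0.25, edgeR adjusted p = 0.106) and was called only without OVA IFN-γ replicate 2, the lowest treated OVA library (0.20, adjusted p = 0.0268).

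**Figure D3:**
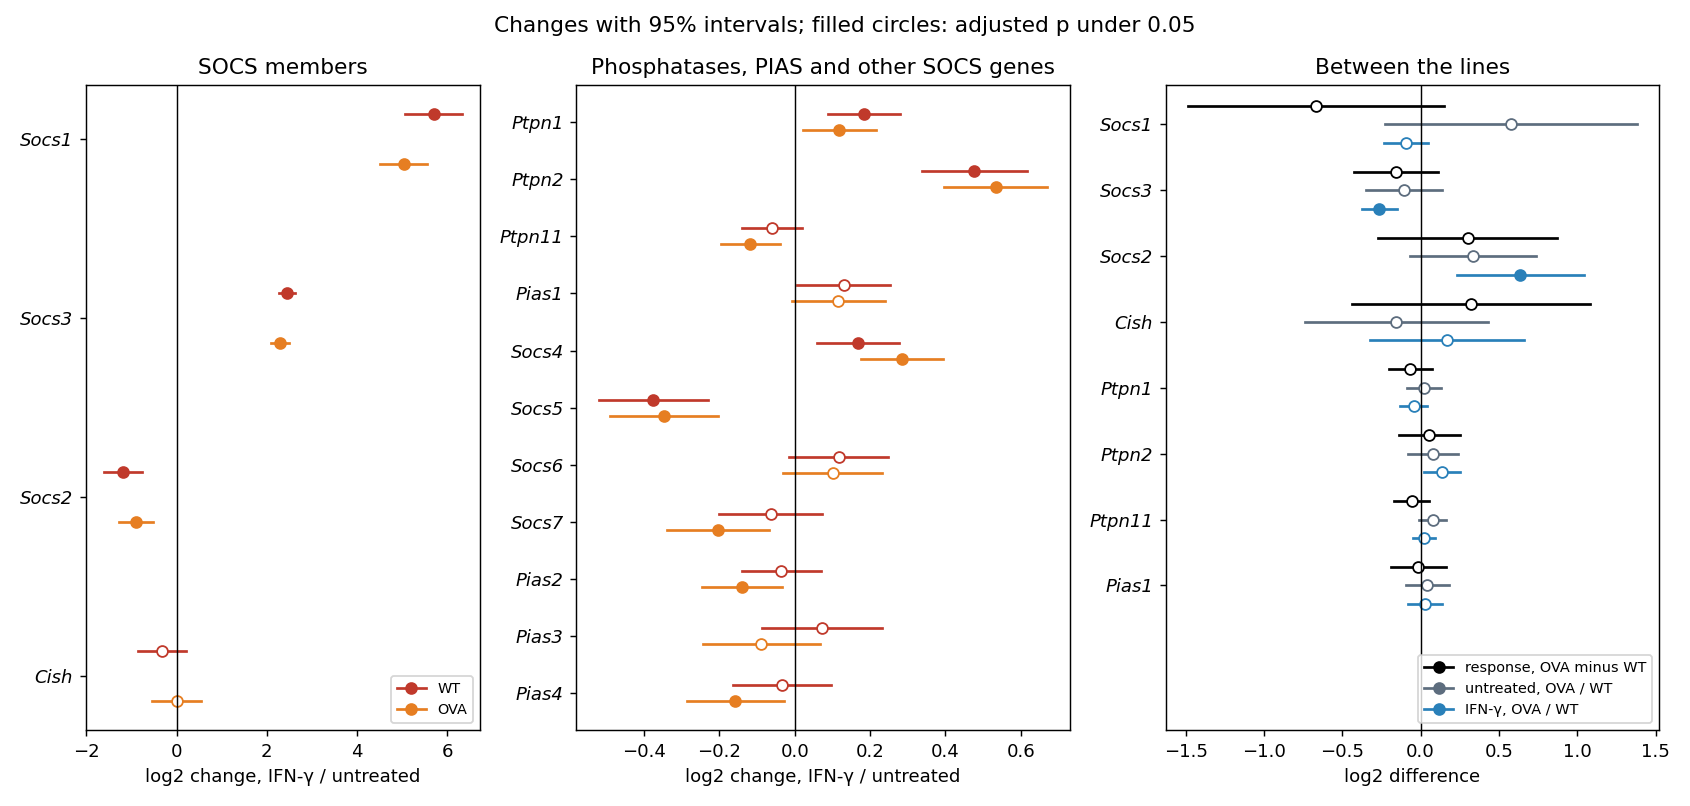
Log2 changes with 95% intervals from the edgeR fit. The left and middle panels give IFN-γ against untreated in WT (red) and OVA (orange), on different horizontal scales, and the right panel gives the difference of responses and the differences between lines for the 8 members. Filled circles passed an adjusted p of 0.05. Socs1, at 5.70 and 5.04, lies far from the other genes, and in the right panel only Socs3 and Socs2 with IFN-γ are filled.

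The other 4 SOCS genes, which are not members, made up most of the family's RNA before treatment. Socs4 rose in both lines, by 0.17 in WT (SE 0.051, edgeR adjusted p = 0.0129) and by 0.28 in OVA (SE 0.052, adjusted p = 2.10e-04). Socs4 was not called in WT with DESeq2 (0.0670) or without WT untreated replicate 1 (0.120). Socs5 fell by 0.38 in WT (SE 0.068, edgeR adjusted p = 2.48e-04) and by 0.35 in OVA (SE 0.068, adjusted p = 4.36e-04). Socs7 was at −0.064 in WT and fell by 0.20 in OVA, a call lost without OVA untreated replicate 1 (adjusted p = 0.0770), OVA untreated replicate 2 (0.0560) or OVA IFN-γ replicate 2 (0.0532). Socs6 was at 0.12 and 0.10 and was not called.

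Levels of different genes were compared as CPM per kb of exon union, the length of all annotated exons of a gene merged. On that scale Socs3 rose from 3.37 ± 0.129 to 18.4 ± 1.25 CPM per kb in WT and from 3.12 ± 0.292 to 15.3 ± 0.460 in OVA. Socs1 rose from 0.162 ± 0.0660 to 8.60 ± 0.225 in WT and from 0.244 ± 0.0551 to 8.06 ± 0.413 in OVA. The sum over the 8 SOCS family genes went from 25.0 ± 0.235 to 48.1 ± 1.47 in WT and from 25.2 ± 0.767 to 44.9 ± 0.715 in OVA. The share of Socs1 and Socs3 in that sum went from 0.647% and 13.4% to 17.9% and 38.2% in WT, and from 0.962% and 12.4% to 17.9% and 34.1% in OVA. With the median length of coding transcripts instead, an alternative added after seeing the data, the treated WT shares were 13.9% for Socs1 and 32.8% for Socs3. Under both lengths Socs3 had the highest level of the family in treated cells, while the order of the next genes depended on the length. By exon union, Socs1 was next in treated WT at 8.60, beside Socs4 at 8.25, but by transcript length Socs6 was next at 13.8. Among the phosphatases and Pias1, the order in treated WT by exon union was Ptpn11 (25.8 ± 1.34 CPM per kb), Ptpn2 (12.4 ± 0.297), Ptpn1 (11.2 ± 0.143) and Pias1 (6.38 ± 0.333). The median transcript length gave the same order in treated WT. In untreated WT the order of Ptpn1 and Ptpn2 depended on the length, at 9.86 ± 0.499 and 8.90 ± 0.167 by exon union but 12.9 ± 0.655 and 17.7 ± 0.332 by transcript length.

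**Figure D4:**
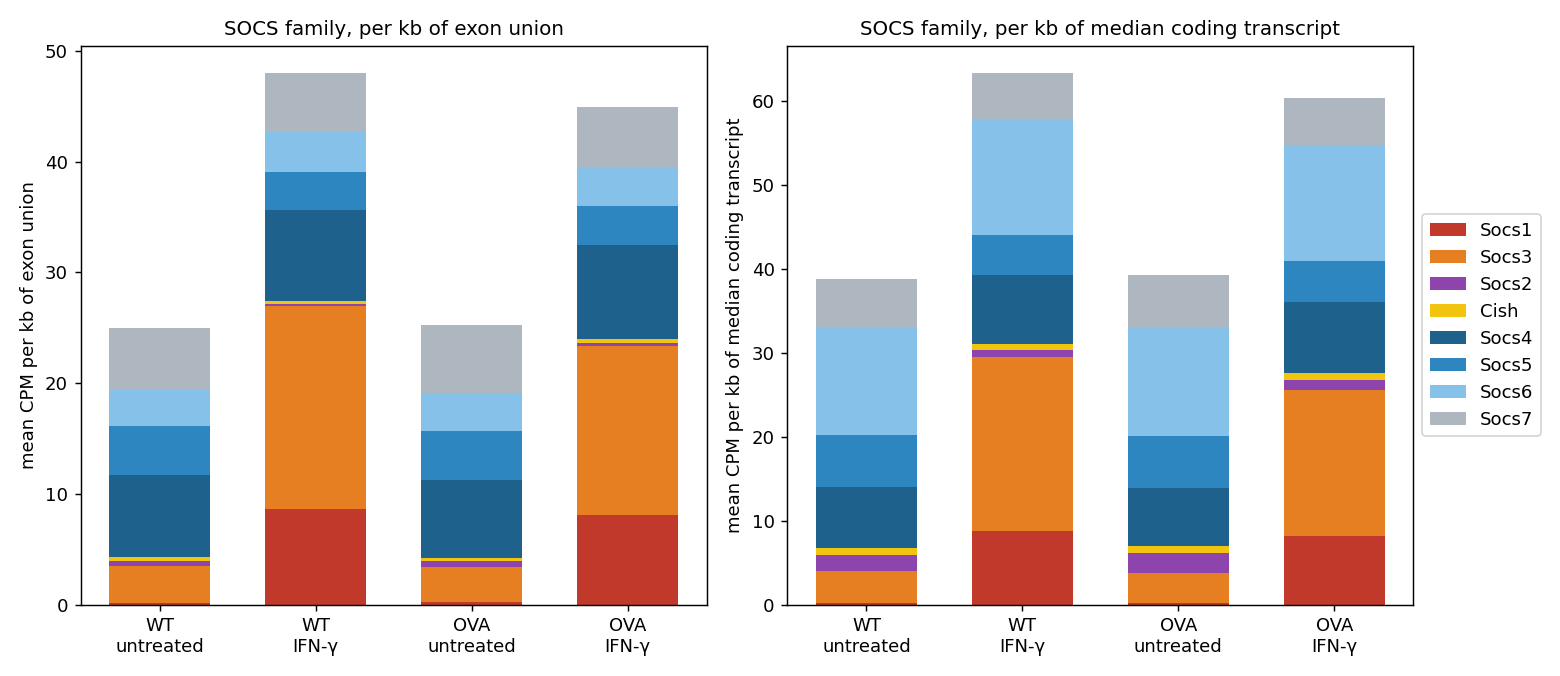
Mean level of the 8 SOCS family genes stacked by group, in CPM per kb of exon union (left) and per kb of the median coding transcript (right), on axes that start at 0. The red and orange parts, Socs1 and Socs3, make up most of the increase in treated cells under both lengths, and the parts of Socs4 to Socs7 change little by comparison.

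Genes of the pathway that the SOCS proteins act on were called too. Stat2 rose by 4.28 log2 units in WT (SE 0.067) and 4.26 in OVA (SE 0.065), and Stat3, which signals below gp130, rose by 2.79 and 2.89. The kinase genes rose less, Jak2 by 0.91 in WT and 0.86 in OVA. Jak1 rose by 0.18 and 0.11, and its OVA call was lost with DESeq2 (adjusted p = 0.0621) and without OVA untreated replicate 1 (0.224) or replicate 1 (0.0657) or 2 (0.0943) of treated OVA. The receptor genes Ifngr1 and Ifngr2 fell, by 0.26 and 0.46 in WT and by 0.30 and 0.53 in OVA, and Ifngr1 was not called in WT without WT untreated replicate 1 (adjusted p = 0.100).

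The amount of Socs1 relative to these genes was compared within each library, per kb of exon union. The ratio of Socs1 to Jak2 was 0.0287 and 0.0167 in untreated WT and 0.620 to 0.655 in treated WT. In OVA it was 0.0378 and 0.0283 untreated and 0.573 to 0.620 treated. The ratio of Socs1 to Jak1 went from 0.00764 to a mean of 0.354 in WT and from 0.0117 to 0.357 in OVA, and that of Socs1 to Ifngr1 from 0.0230 to 1.48 and from 0.0337 to 1.37. The ratio of Socs1 to Irf1, a transcription factor gene induced by IFN-γ, was 0.0599 ± 0.0216 and 0.0488 ± 0.00268 in WT and 0.0935 ± 0.0220 and 0.0486 ± 0.00406 in OVA. The treated values lay inside the untreated range in WT and below it in OVA. Socs1 thus gained on the receptor and kinase genes and not on Irf1. These ratios are descriptions with no test. Their size depends on the gene length used, here exon union only, while their change between groups does not.

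**Figure D5:**
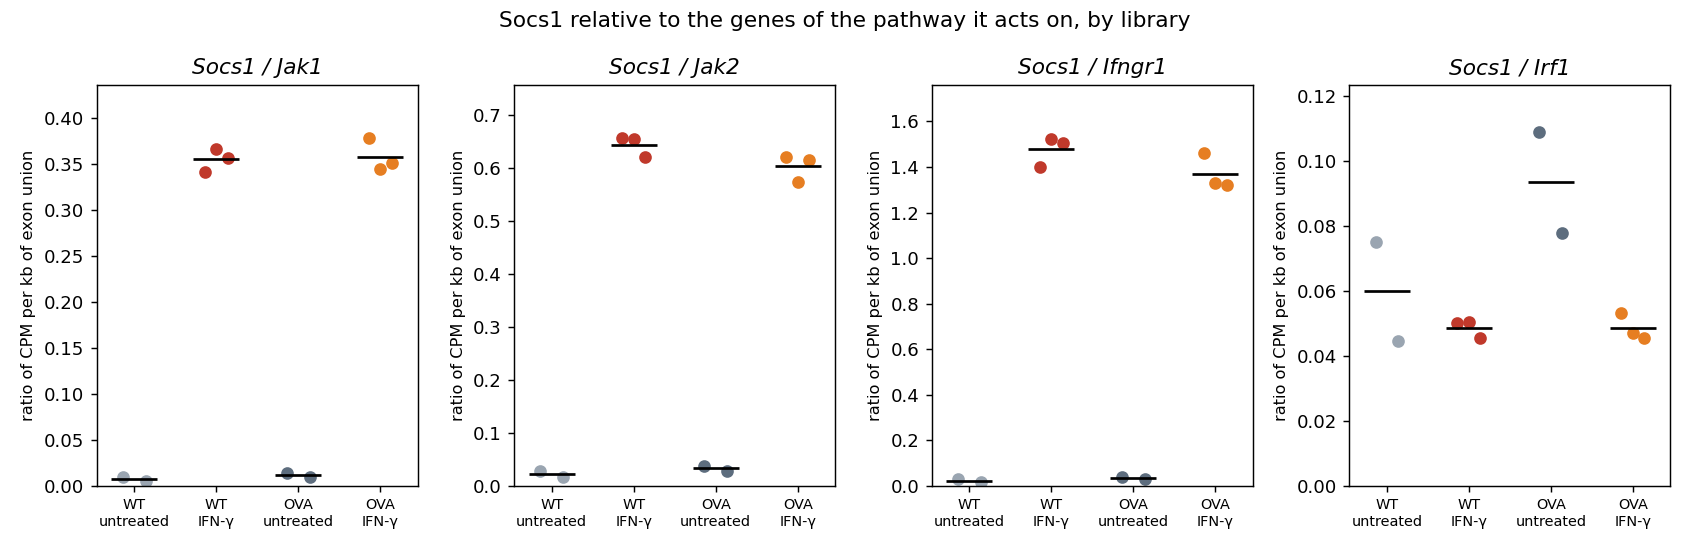
Ratio of Socs1 to Jak1, Jak2, Ifngr1 and Irf1 in each library, both as CPM per kb of exon union, on axes that start at 0 and differ between panels. Points are libraries and bars are group means. The ratios to Jak1, Jak2 and Ifngr1 separate treated from untreated libraries, and the ratio to Irf1 lies between 0.0446 and 0.109 in all 10.

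Of 14 tested cytokine receptor genes of 16 listed, 5 rose and 6 fell in each line, where 24.5% of all genes rose and 19.7% fell in WT and 25.9% and 22.9% in OVA. Osmr, the oncostatin M receptor, rose by 2.18 in WT (SE 0.13) and by 1.91 in OVA (SE 0.12). Il6st, which encodes gp130, fell by 0.34 in WT (SE 0.047) and by 0.45 in OVA (SE 0.047). Ifnar2, a chain of the type I interferon receptor, rose by 0.87 in WT, and Lifr, the leukemia inhibitory factor receptor, by 0.94 in OVA, and each was also called higher in the other line. Il2rg, the shared gamma chain of interleukin receptors, had 2 and 1 counts in untreated WT, 22, 19 and 13 in treated WT, 1 and 0 in untreated OVA, and 20, 22 and 21 in treated OVA.

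Of 6 tested genes of 7 listed as other brakes on the pathway, 2 rose and 2 fell in each line, where 24.5% of all genes rose and 19.7% fell in WT and 25.9% and 22.9% in OVA. Usp18, which blocks the type I interferon receptor and removes ISG15 from proteins, rose from 0.751 ± 0.0470 to 63.9 ± 0.649 CPM in WT and from 1.12 ± 0.202 to 112.6 ± 0.939 CPM in OVA. Those changes were 6.40 (SE 0.21) and 6.65 (SE 0.17) log2 units. In treated cells Usp18 was higher in OVA by 0.82 (SE 0.035, edgeR adjusted p = 9.22e-11), whereas Socs1 was not called there. The other gene that rose was Trim8, a ubiquitin ligase gene, by 0.12 in WT (SE 0.046, edgeR adjusted p = 0.0417) and 0.12 in OVA (SE 0.045, adjusted p = 0.0314). The WT call of Trim8 was lost in 9 of 10 fits without 1 library, all but that without treated WT replicate 2 (adjusted p 0.0484 to 0.278 over the 10), and with DESeq2 (0.209), no filter (0.0655), the stricter filter (0.0875) and only the WT groups (0.0624). Its OVA call was lost in 6 of 10, those without either untreated OVA library, treated OVA replicate 1 or 2, or treated WT replicate 1 or 3 (adjusted p 0.0210 to 0.184 over the 10), and with DESeq2 (0.157) and only the OVA groups (0.0550). The adaptor gene Sh2b3, a brake on Jak2, fell by 0.38 in WT and 0.42 in OVA, and the ubiquitin ligase gene Cbl fell by 0.21 and 0.42. Cbl was not called in WT when untreated replicate 2 was left out (adjusted p = 0.119). Of 4 tested phosphatase genes outside the members, of 6 listed, 0 rose by edgeR in either line, 2 fell in WT and 3 in OVA, where 19.7% and 22.9% of all genes fell. Ptprj, a receptor phosphatase, fell by 0.32 in WT and 0.35 in OVA, and Ptpn9 fell by 0.17 and 0.19. Ptpn9 was not called in WT when untreated replicate 1 was left out (adjusted p = 0.0722). Ptpn6, which encodes SHP1, fell by 0.26 in OVA, a call lost with DESeq2 (adjusted p = 0.101), with no filter (0.0584) and without OVA untreated replicate 1 (0.0951) or 2 (0.0862) or OVA IFN-γ replicate 1 (0.0535) or 2 (0.0657).

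The SOCS box joins SOCS proteins to an Elongin-Cullin ubiquitin ligase. Of 6 genes listed for ligases of that kind, 2 rose in each line and none fell by edgeR. That count was near the 24.5% of all genes that rose in WT and the 25.9% in OVA. Cul2 rose by 0.57 in WT (SE 0.053) and by 0.53 in OVA (SE 0.053). The others called were Cul5 in WT (0.10) and Elob in OVA (0.23). Cul2 was thus the only gene of the list called in both lines, and Cul5 was at 0.0036 in OVA. The Cul5 call was lost with DESeq2 (adjusted p = 0.140), with a stricter filter (0.0630) and without WT untreated replicate 1 (0.0856) or 2 (0.0942), WT IFN-γ replicate 1 (0.0763) or 3 (0.0754) or OVA untreated replicate 1 (0.0514). The Elob call was lost without OVA untreated replicate 1 (adjusted p = 0.102).

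PIAS proteins are ligases of the SUMO pathway. The SUMO protease gene Senp1 fell by 0.36 in WT and 0.44 in OVA. The activating enzyme gene Sae1 fell by 0.18 and 0.29. Of the 3 other PIAS genes, none was called in WT by edgeR, and Pias2 (−0.14, adjusted p = 0.0299) and Pias4 (−0.16, adjusted p = 0.0411) fell in OVA, where 22.9% of all genes fell. The OVA call of Pias2 was lost with DESeq2 (0.109), with no filter (0.119) and without OVA untreated replicate 2 (0.390) or OVA IFN-γ replicate 2 (0.0704). That of Pias4 was lost with DESeq2 (0.121), no filter (0.0978), a replicate block (0.0781) and 5 of the fits without 1 library (adjusted p up to 0.210). Those 5 left out either WT untreated library, either OVA untreated library or OVA IFN-γ replicate 3.

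The genes whose log2 CPM was most like that of each member over the 10 libraries were found among those with at least 5 CPM. The libraries fall into 4 groups, so a high correlation mostly reflects shared group levels, and it is given as a description. For Socs1 they were Gbp7 (Pearson's r = 0.999), Mras (0.999) and Ciita (0.999), with 944 genes of 10356 above 0.95. For Socs3 they were Bak1, Stom and Sbno2 (each 0.998 or 0.999), with 866 genes above 0.95. For Socs2 they were Pcna (0.975), Mcm10 (0.972) and Nudt21 (0.970), with 17 genes above 0.95. For Ptpn2 they were Plekhm2, Calcoco1 and Aar2 (each 0.988), with 480 above 0.95. Cish had no gene above 0.95, and its closest was Thop1 (0.851). The closest to Ptpn1 was Sp4 (0.971), with 15 genes above 0.95. Ptpn11 was closest to Pik3r1 (0.952) and Pias1 to Sfmbt1 (0.952), each with 1 gene above 0.95.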

How the data were processed

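Poly-A selected RNA of 10 samples was sequenced. The deposited values are read counts, not normalized, for each Ensembl gene. Per the submitters' processing notes, GRCm39 was the build, and HISAT2 2.0.5 and featureCounts 1.6.0 were used. Annotation, strand and multi-mapping settings: not given in the sources used here.

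The tests on counts used edgeR 4.0.16 under R 4.3.3 (TMM factors, filterByExpr on group, quasi-likelihood F test, two-sided), all 10 samples in 1 fit with 4 group means. Adjusted p-values are Benjamini-Hochberg over 15526 genes, threshold 0.05. SE and 95% intervals are Wald values with the quasi-likelihood dispersion. CPM carries TMM factors. Correlations used log2 CPM with a prior count of 2. Lengths came from GENCODE M21 by gene ID. The pipeline was tested on simulated data.

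The members and lists were chosen with earlier results of these data known. All 8 members were named, with SOCS and PIAS relatives, up to 3 called genes per other list, the signalling genes Ifngr1, Ifngr2, Jak1, Jak2 and Irf1, and up to 3 genes most like each member. Irf1 rose by 6.04 log2 units in WT and 5.99 in OVA. Some genes and the list counts that hold them are not reported here. A fibroblast marker list was also measured (summed level 4.18 to 7.67 CPM in the 10 libraries).

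The alternatives were DESeq2 1.42.0, limma-voom (limma 3.58.1), fits with the replicate block, with just the compared groups, without the filter or with 1 CPM required in 5 samples, thresholds of 0.01 or of 2-fold, and fits without each library. Where that left 1 sample in a group, it was assumed to vary like the other groups.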

Additional observations from a re-analysis of the deposited data

How the results depend on the processing

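The counts of members called in WT (5) and OVA (6) stayed within 1.5 times under DESeq2, limma-voom, both filters, the replicate block, only the groups compared and an adjusted p under 0.01, and ran from 4 to 6 in both lines when 1 library was left out. Asking for at least 2-fold gave 3 in WT, 2 in OVA and 0 between treated lines. Between treated lines the count was 1 instead of 2 with DESeq2, only the groups compared and an adjusted p under 0.01, and 1 to 2 without 1 library. The counts of 0 between untreated lines and for the response difference stayed 0 in every alternative run (the response difference needs all 4 groups, so it has no fit with only the groups compared). No reversal concerned a called value. Cish in OVA was at −0.0046 with DESeq2, −0.033 with limma-voom, −0.0083 with the stricter filter, −0.0053 with only the groups compared and −0.28 to 0.14 without 1 library. The other signs that changed without 1 library were those of Pias1 (−0.091 to 0.059) and Ptpn2 (−0.015 to 0.13) for the difference of responses, Ptpn1 (−0.029 to 0.073) and Pias1 (−0.029 to 0.12) between untreated lines, Ptpn11 (−0.014 to 0.060), Pias1 (−0.0059 to 0.068) and Cish (−0.099 to 0.32) between treated lines, and Pias4 in WT (−0.089 to 0.018). The cause was not tested. The replicate block, in which equal replicate numbers were paired across groups, left the counts at 5 and 6. The deviations of same-numbered samples from their group means correlated at −0.072 to 0.035. With groups of 2 or 3 libraries, these values cannot show whether equal numbers mark a shared culture or batch. The labels do not say either. Few untreated Socs1 counts limit its folds, and low Cish and Socs2 counts limit theirs.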

Other observations

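Between the treated lines, Socs3 was at −0.26 on the log2 scale (OVA against WT), Usp18 at 0.82 and Socs2 at 0.64 in the fit of all samples, each called, and Socs1 was at −0.094 and not called. For none of these was the difference of responses called (Socs1 adjusted p = 0.624, Socs3 0.727, Socs2 0.756, Usp18 0.878). The ratio of Socs3 to Stat3, per kb of exon union, was 0.545 and 0.510 in untreated WT, 0.381 to 0.440 in treated WT, 0.514 and 0.564 in untreated OVA and 0.344 to 0.379 in treated OVA, so Socs3 rose by less than Stat3 in every treated library. The ratio of Ptpn2 to Jak1 was 0.418 and 0.416 in untreated WT and 0.490 to 0.541 in treated WT. In OVA it was 0.481 and 0.422 untreated and 0.548 to 0.636 treated. The size of both ratios depends on the gene length used, while their change between groups does not.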
